A study of Mus musculus with 9 samples.

Results

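The chemokine system was examined across 9 RNA sequencing libraries of aged C57BL/6 mice, in spleens and lymph nodes of plckGAPDH mice and in spleens of wild-type mice. Its members were the rows of the expression table whose symbol is that of a CC or CXC chemokine, of a receptor of these, of an atypical chemokine receptor, or Xcl1, Xcr1, Cx3cl1 or Cx3cr1, with Cxcr5 left out. These were 59 of 46517 genes, 38 ligands and 21 receptors. All 59 Ensembl identifiers were found in GENCODE M21, an annotation of the mouse build GRCm38 (mm10).

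The groups were 4 spleens of plckGAPDH mice (animals 343, 508 and 547 and 1 spleen whose column gives no animal number, called the unnumbered spleen), 2 lymph nodes of plckGAPDH mice (animals 455 and 508) and 3 spleens of wild-type mice (1, 4 and 5). The title of lymph node 455 carries MES and that of lymph node 508 carries LN, and both are labelled as lymph node. Whether the 2 nodes come from the same site is not known from the labels. All animals were older than 18 months. The plckGAPDH transgene drives Gapdh, a glycolytic enzyme, from the Lck promoter of the T cell lineage, and the protocol describes these mice as bearing tumours, which the series title names as a T cell lymphoma. The protocol speaks of RNA from splenocytes for all samples, lymph nodes included. Since 1 titled plckGAPDH spleen could not be matched to a column by its number, it is uncertain that the 4 columns come from 4 animals, and p-values here capture no more than the spread among the samples. The spleen comparison asks how chemokine genes of transgenic spleens differ from those of wild-type spleens, and the lymph node comparison how transgenic lymph nodes differ from transgenic spleens.

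Chemokines are small secreted proteins that direct the movement of leukocytes by binding G protein-coupled receptors on their surface. Homeostatic chemokines such as Ccl19, Ccl21a and Cxcl13 are made mostly by stromal cells and keep T and B cells in their zones of the spleen and lymph nodes. Inflammatory chemokines such as Ccl3, Ccl5 and Cxcl10 are made by activated leukocytes and recruit effector T cells, natural killer (NK) cells and monocytes. Atypical receptors bind chemokines without G protein signalling and remove them.

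Levels are FPKM, a fragment count divided by gene length and by the total counted in the library, which allows levels of different genes to be set side by side. Estimated depth was between 24000000 fragments (plckGAPDH spleen 508) and 34400000 (plckGAPDH spleen 547). Several libraries stood apart in content. Haemoglobin and other erythroid markers summed to 45269 FPKM in wild-type spleen 5, against 1.6 to 1273 in the other 8 libraries, and that spleen differed from the other 8 in sex-linked genes, with Xist at 0.09 FPKM (31.2 to 59.7 elsewhere) and Eif2s3y at 30.5 FPKM (0 elsewhere). The 9 neutrophil markers summed to 7.94 FPKM in wild-type spleen 4, against 573 and 3518 in the other wild-type spleens. They summed to 611 to 1407 FPKM in plckGAPDH spleens and to 46.1 and 57.0 FPKM in lymph nodes 455 and 508. Wild-type spleen 4 also had the lowest erythroid sum, at 1.6 FPKM, where lymph nodes 455 and 508 had 3.45 and 4.45 FPKM. The cause of the low sums in this control was not tested. Plasma cell markers summed to 3919 FPKM in plckGAPDH spleen 508 and to 1936 and 2066 in the lymph nodes, against 56.5 to 296 in the other 6 spleens. Summed over 3 genes of high endothelial venules, lymph node 455 had 0.49 FPKM and lymph node 508 had 0.10 FPKM, against 0.18 to 2.27 FPKM in the spleens. These venules are the entry vessels of lymph nodes, and Chst4 of that list was at 0 in all 9 libraries. Glycam1 of the list was at 0.64 FPKM in wild-type spleen 4, 0.26 FPKM in lymph node 455 and 0 elsewhere. Fut7 alone was at 2.27 FPKM in the unnumbered spleen. These defining markers of a lymph node were thus at or near 0 in the nodes and did not set them apart from the spleens. Gapdh was at 554 FPKM in lymph node 455, 312 FPKM in lymph node 508 and 430 to 894 FPKM in plckGAPDH spleens, against 299 to 348 FPKM in wild-type spleens. Lymph node 508 lay within the wild-type spleen range, and there was no wild-type lymph node to set it against.

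Most of the chemokine system was low. Of the 59 members, 39 reached 1 FPKM in at least 1 sample (21 ligands and 18 receptors), 10 reached it in all 9, 17 were above 0 but under 1 FPKM throughout, and Ccl21b, Ccl26 and Ccl27b were listed at 0 in all 9. None of the 5 ligands of the neutrophil receptor Cxcr2 (Cxcl1, Cxcl2, Cxcl3, Cxcl5 and Cxcl15) reached 1 FPKM, with a highest summed level of 0.48 FPKM. Ccl20, the ligand of Ccr6, did not pass 0.06 FPKM in any library. One ligand and one receptor led in most spleens: Ccl5 made 63.7% to 71.7% of summed ligand FPKM in plckGAPDH spleens 343, 547 and the unnumbered one, and 49.4% to 74.0% in wild-type spleens, and Cxcr4 was the most abundant receptor in every library but wild-type spleen 5, where Ccr7 led with 73.3 FPKM.

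**Figure D1:**
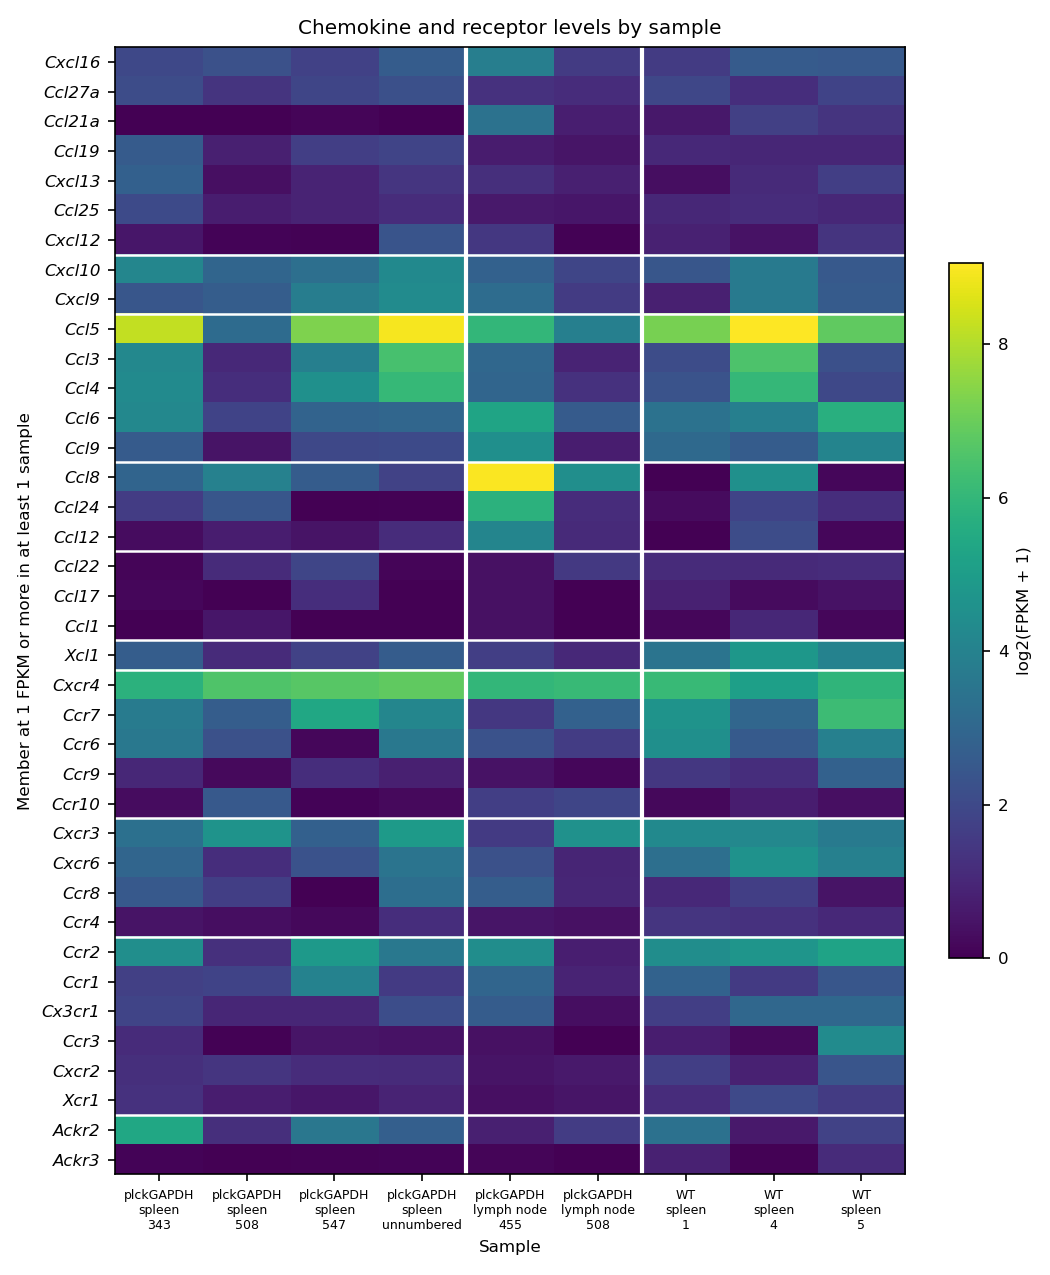
Levels of 38 of the 39 members that reached 1 FPKM in at least 1 sample, as log2(FPKM + 1) by colour, with samples in columns and members in rows grouped by role (white lines) and ordered by mean FPKM within a role. Ccl5 and Cxcr4 are bright in most columns, and Ccl8 stands out in lymph node 455 at 513 FPKM.

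No member passed the test between plckGAPDH and wild-type spleens. Of the 31 members that reached 1 FPKM in at least 3 spleens, limma on log2(FPKM + 1) called 0 higher and 0 lower at an FDR (false discovery rate by Benjamini and Hochberg) under 0.05, where the background was 0.206% of 12607 genes called higher and 1.23% called lower. 7 of the 31 had an unadjusted p under 0.05 in limma, beside 1116 of the 12607 genes tested. These 7 all had negative fold changes: Xcl1, Ccl9, Cxcr6, Cx3cr1, Ccr9, Ccl6 and Ccr4. The log2 fold change was positive in 13 and negative in 18 members, with a median of -0.16 beside 0.02 over all genes tested. With scaling to genes outside the antigen receptor, haemoglobin and mitochondrial genes, the medians were -0.42 for the members and -0.19 for all genes. With sample quality weights limma called 8 members higher (Ccl3, Ccl4, Ccl8, Ccl19, Ccr8, Cxcl9, Cxcl10 and Cxcl13) and 2 lower (Xcl1 and Ccl9), beside a background of 7.07% called higher and 7.71% lower. That fit gave wild-type spleen 1 a weight of 24.8, against 0.296 to 2.04 for the other 6 spleens, and the estimation of the weights stopped before it converged. The other 28 members did not reach the filter and were not tested. Among ligands 9 fold changes were positive and 7 negative (median 0.19), and among receptors 4 were positive and 11 negative (median -0.62). In a bulk sample, fewer cells of a type and less RNA per cell cannot be told apart.

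The lymphoid chemokine Xcl1 came closest to a call. Xcl1, made by NK cells and activated CD8 T cells, attracts the cross-presenting dendritic cells that carry Xcr1. It was at 5.43 (343), 1.16 (508), 2.45 (547) and 5.25 FPKM (unnumbered) in plckGAPDH spleens, against 10.3 (1), 26.4 (4) and 14.99 FPKM (5) in wild-type spleens. The groups did not overlap. The means were 3.57 ± 2.11 FPKM in plckGAPDH spleens (SD, n = 4) and 17.2 ± 8.27 FPKM in wild-type spleens (SD, n = 3), a log2 change of -2.04 (SE 0.48, limma FDR 0.0642). Without plckGAPDH spleen 343 the limma FDR was 0.0313 and without the unnumbered spleen 0.0412, while without wild-type spleen 4 or 5 it was 0.343 and 0.247. Xcl1 lies on chromosome 1 and shares 98 of its 523 exon bases with Gm20743 on the opposite strand, and the counting is not stated to use strand. The values rested on an estimated 10 to 48 fragments per library in plckGAPDH spleens and on 96 to 256 fragments in wild-type spleens. Xcr1, the receptor of Xcl1, was at 0.48 to 1.44 FPKM in plckGAPDH spleens and 1.23 to 3.01 FPKM in wild-type spleens, with a log2 change of -0.70 (SE 0.33, limma FDR 0.588).

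NK cell markers moved with Xcl1 in part. The 5 NK markers summed to 7.36 to 134 FPKM in plckGAPDH spleens and 69.8 to 151 FPKM in wild-type spleens, with none at 0, and overlapped between the groups. Ncr1, an activating receptor of NK cells, was at 0.04 to 0.93 FPKM in plckGAPDH spleens and at 10.9 (1), 1.01 (4) and 18.0 FPKM (5) in wild-type spleens. The others of the list overlapped between plckGAPDH and wild-type spleens. Nkg7 was at 3.62 to 104 against 29.8 to 119 FPKM, and Eomes at 0.10 to 12.6 against 5.26 to 25.3 FPKM. Tbx21 was at 2.75 to 15.4 against 4.82 to 16.2 FPKM, and Klrb1c at 0.24 to 1.57 against 0.71 to 15.3 FPKM. Among wild-type spleens, spleen 4 had the highest Xcl1, the highest NK marker sum and the highest Nkg7 and Eomes (119 and 25.3 FPKM), and the lowest Ncr1, Klrb1c and Tbx21. The part of NK cell content in the Xcl1 values was not tested.

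Ccl9 and Ccl6, rodent CC chemokines that act on the myeloid receptor Ccr1, were the ligands next to Xcl1 in size. Ccl9 was at 5.11, 0.40, 2.87 and 3.10 FPKM in plckGAPDH spleens 343, 508, 547 and the unnumbered one, against 7.49, 5.22 and 16.1 FPKM in wild-type spleens 1, 4 and 5. The groups did not overlap, although the values of spleen 343 and wild-type spleen 4 nearly met, and the log2 fold change was -1.50 (SE 0.52, limma FDR 0.320). Ccl6 was at 17.5, 2.51, 6.42 and 6.90 FPKM in plckGAPDH spleens, against 9.52, 13.9 and 52.0 FPKM in wild-type spleens, and overlapped, with a log2 change of -1.37 (SE 0.63, limma FDR 0.563). Both were highest among the spleens in wild-type spleen 5. Xcl1 and Ccl9 were the 2 members of 31 tested whose plckGAPDH values all lay below the wild-type values, where the background was 3.88% of genes tested, and 0 of 31 lay above, against 3.39%.

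Ccl3, Ccl4 and Ccl5, inflammatory CC chemokines made by activated T cells, NK cells and macrophages, overlapped widely between the groups. Ccl5 was at 295 (343), 7.91 (508), 156 (547) and 492 FPKM (unnumbered) in plckGAPDH spleens, against 146 (1), 530.3 (4) and 115 FPKM (5) in wild-type spleens. Ccl3 was at 17.9, 1.04, 13.9 and 84.7 FPKM in plckGAPDH spleens in the same order, against 3.27, 91.7 and 3.60 FPKM in wild-type spleens. Ccl4 was at 19.0, 1.26, 22.1 and 66.5 FPKM in plckGAPDH spleens, against 3.97, 64.1 and 2.92 FPKM in wild-type spleens. The unnumbered spleen and wild-type spleen 4 were the highest for all 3 genes, and plckGAPDH spleen 508 was the lowest for all 3. The log2 fold changes were -0.80 for Ccl5, 0.29 for Ccl3 and 0.59 for Ccl4, with limma FDR between 0.967 and 0.991, and each turned in sign when certain single spleens were left out, for example: the fold change of Ccl5 was 0.45 without spleen 508, and those of Ccl3 and Ccl4 were -0.56 and -0.09 without the unnumbered spleen. The level of Ccl5 relative to Ccl3 was 5.81 to 16.5 in plckGAPDH spleens, and 5.78 (4), 31.9 (5) and 44.6 (1) in wild-type spleens. T cell markers, 6 genes, summed to 67.4 to 585 FPKM in plckGAPDH spleens and 187 to 360.0 FPKM in wild-type spleens, with the highest sums of each group in the unnumbered spleen and wild-type spleen 4. Wild-type spleen 5 nearly matched spleen 4 in this sum, at 353 FPKM, although its Ccl3, Ccl4 and Ccl5 were far lower. The part of T cells in the values of these ligands was not tested.

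**Figure D2:**
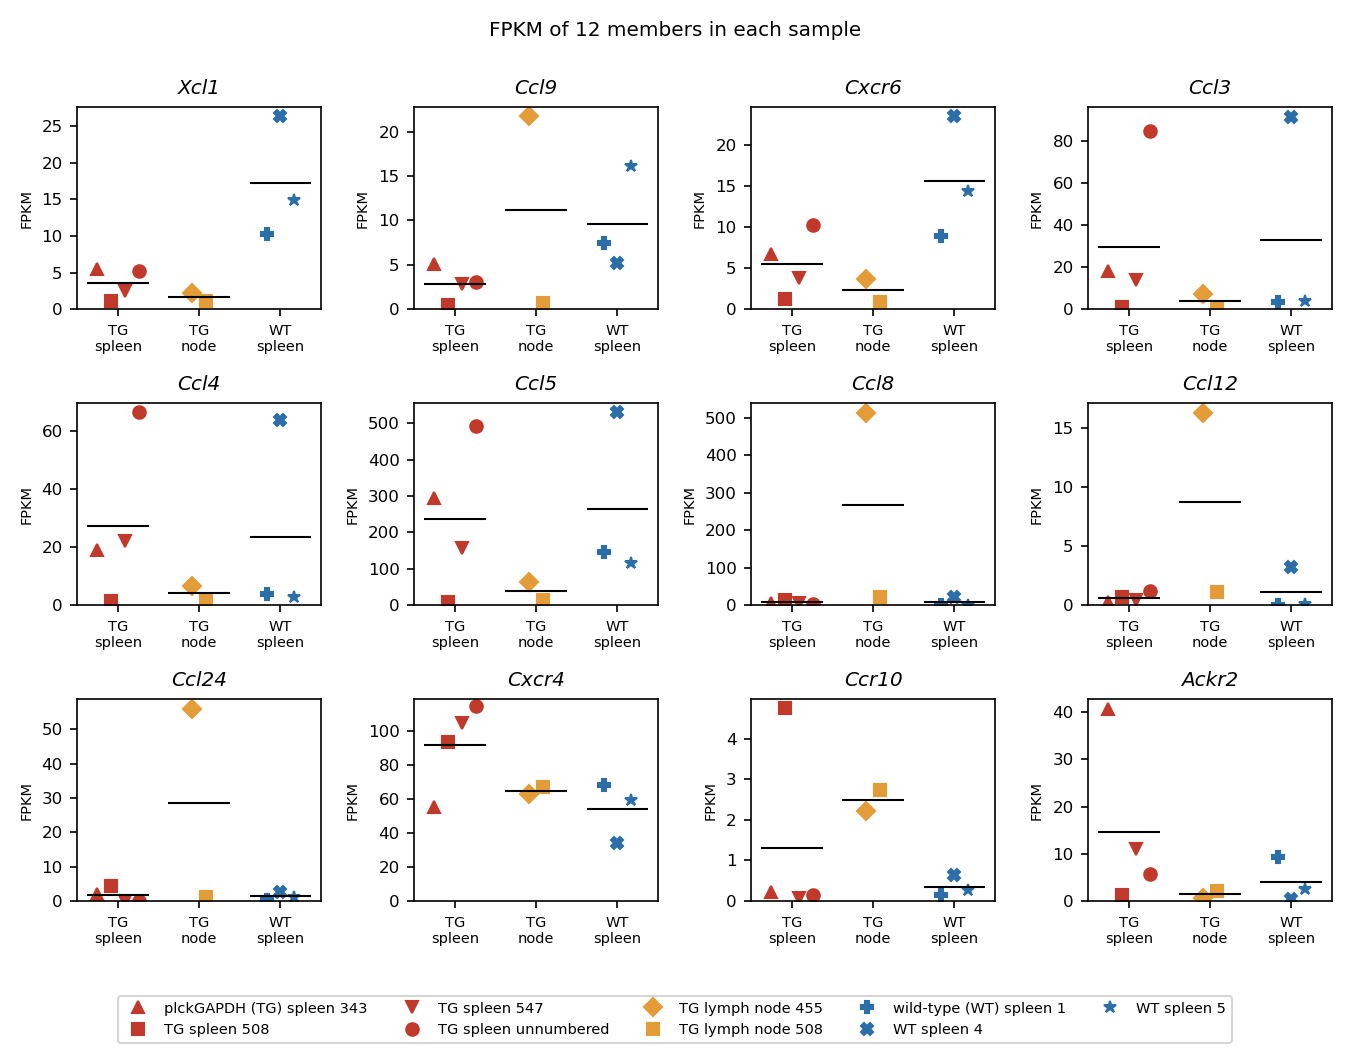
FPKM of 12 members in each sample, with plckGAPDH (TG) spleens, plckGAPDH lymph nodes and wild-type (WT) spleens from left to right, 1 symbol per library and a black line at the group mean. Xcl1 and Ccl9 do not overlap between the spleen groups, Ccl3, Ccl4 and Ccl5 peak in the unnumbered spleen and wild-type spleen 4, and Ccl8, Ccl12 and Ccl24 peak in lymph node 455.

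Cxcl9 and Cxcl10, interferon-induced ligands of the T cell receptor for chemokines Cxcr3, had positive fold changes that did not pass the test. Cxcl10 was at 16.8 (343), 6.74 (508), 8.82 (547) and 18.5 FPKM (unnumbered) in plckGAPDH spleens, against 4.39 (1), 12.1 (4) and 4.82 FPKM (5) in wild-type spleens, with a log2 change of 0.78 (SE 0.47, limma FDR 0.767). Cxcl9 was at 4.34, 5.29, 13.3 and 19.6 FPKM in plckGAPDH spleens, against 0.75, 11.8 and 5.13 FPKM in wild-type spleens, with a log2 change of 0.95 (SE 0.66, limma FDR 0.8294). For both genes wild-type spleen 4 lay inside the range of the plckGAPDH spleens. Cxcl10 shares 133 exon bases with Art3 on the opposite strand. Cxcl11, the other ligand of Cxcr3, did not pass 0.49 FPKM in any library. Cxcr3 itself was at 9.02, 23.9, 5.81 and 29.6 FPKM in plckGAPDH spleens 343, 508, 547 and the unnumbered one, against 18.4, 17.9 and 12.02 FPKM in wild-type spleens 1, 4 and 5, so the wild-type values lay within the plckGAPDH range (log2 fold change -0.16, limma FDR 0.991).

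The promoters of Cxcl9 and Cxcl10, neighbouring genes that were both highest in the unnumbered spleen, are shown. The choice was made after seeing which promoters were at hand and where motifs lay, so the matches themselves are not a result. Each sequence runs 250 bases before to 50 bases after the RefSeq start on GRCm38.p6, and capitals mark matches to 5 motifs searched on both strands with no overlap between the matches: the TATA box (TATAAA), an interferon response element (GAAA, any 2 bases, GAAA), an AP-1 site (TGANTCA), an NF-kB site (GGG, any 2 bases, TTTCC) and an interferon gamma activation site (TTCNNNGAA). The Cxcl9 window held TATAAA at position -195 from the start and an AP-1 match at position 31. The Cxcl10 window held an interferon response element match at position -213 and an AP-1 match at position -74. Only these strings were searched, so variants of a site stay in lower case, and a window without a match may still hold such a site.
Cxcl9 promoter, chr5:92328030-92328329, minus strand: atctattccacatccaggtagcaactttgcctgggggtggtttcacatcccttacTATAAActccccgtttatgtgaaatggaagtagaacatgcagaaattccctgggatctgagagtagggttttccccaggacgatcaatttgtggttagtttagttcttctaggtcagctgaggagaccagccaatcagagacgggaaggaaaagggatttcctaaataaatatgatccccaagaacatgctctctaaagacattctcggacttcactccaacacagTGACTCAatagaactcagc
Cxcl10 promoter, chr5:92348840-92349139, minus strand: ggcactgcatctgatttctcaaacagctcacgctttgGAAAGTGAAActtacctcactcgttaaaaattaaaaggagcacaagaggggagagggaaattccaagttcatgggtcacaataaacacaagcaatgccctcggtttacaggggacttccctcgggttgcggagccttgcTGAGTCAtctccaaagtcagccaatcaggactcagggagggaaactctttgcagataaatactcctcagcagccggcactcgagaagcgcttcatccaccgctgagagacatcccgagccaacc
Of 32851 mouse promoters of this length, 13.6% held the TATA box, 3.44% the interferon response element, 7.81% the AP-1 site, 1.63% the NF-kB site and 8.30% the interferon gamma activation site. Promoters were found for 45 members, of which 12, 3, 7, 6 and 3 held these motifs in the same order.

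Homeostatic ligands were low in these splenocyte libraries. Ccl21a, which guides Ccr7-bearing T cells and dendritic cells, was listed at 0 in plckGAPDH spleens 343, 508 and the unnumbered one and was at 0.08 FPKM in 547, against 0.49 (1), 2.32 (4) and 1.54 FPKM (5) in wild-type spleens. These levels, an estimated 0 to 2 fragments per plckGAPDH library and 9 to 44 per wild-type library, did not overlap but stayed under the filter, so Ccl21a was not tested between the spleens. Its close copy Ccl21b and 4 unnamed copies of the locus on chromosome 4 did not pass 0.17 FPKM in any library, and reads shared among such copies make the locus uncertain. Ccl19, the other ligand of Ccr7, was at 0.73 to 5.09 FPKM in plckGAPDH spleens and 0.94 to 1.05 FPKM in wild-type spleens (log2 fold change 0.75, limma FDR 0.681), and its pseudogene Ccl19-ps1 was also highest in spleen 343, at 2.03 FPKM. Cxcl13, which draws B cells into follicles, was at 0.30 to 5.91 FPKM in plckGAPDH spleens and 0.27 to 2.24 FPKM in wild-type spleens (log2 fold change 0.32, limma FDR 0.976). Cxcl12, the ligand of Cxcr4, ranged from 0.03 to 4.13 FPKM in plckGAPDH spleens and from 0.37 to 1.57 FPKM in wild-type spleens. Ccl25, Ccl27a and Cxcl16, ligands of Ccr9, Ccr10 and Cxcr6, lay between 0.65 and 5.22 FPKM in all 7 spleens, with log2 fold changes from -0.10 to 0.24. Ccl22, a ligand of Ccr4 made by dendritic cells, was at 0.08 to 2.67 FPKM in plckGAPDH spleens and 1.13 to 1.21 FPKM in wild-type spleens (log2 fold change -0.31, limma FDR 0.965). Fibroblast markers, 6 genes, summed to 0.57 to 6.83 FPKM in plckGAPDH spleens and 0.86 to 2.53 FPKM in wild-type spleens.

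Receptors of circulating lymphocytes split by gene. Cxcr4, which retains lymphocytes and plasma cells near its ligand Cxcl12, was at 55.3 (343), 93.5 (508), 104 (547) and 115 FPKM (unnumbered) in plckGAPDH spleens, against 68.2 (1), 33.9 (4) and 59.7 FPKM (5) in wild-type spleens. Spleens 508, 547 and the unnumbered one lay above all wild-type spleens and spleen 343 among them, and the log2 fold change was 0.77 (SE 0.45, limma FDR 0.740). Ccr7, which brings T cells and dendritic cells to T zones, was at 12.6, 5.35, 41.1 and 16.6 FPKM in plckGAPDH spleens 343, 508, 547 and the unnumbered one, against 24.1, 6.88 and 73.3 FPKM in wild-type spleens 1, 4 and 5. Its fold change of -0.62 on the log2 scale (limma FDR 0.946) turned to 0.18 without wild-type spleen 5. Ccr6, a receptor of B cells and of some helper T cells, was at 11.3, 3.80, 0.11 and 11.2 FPKM in plckGAPDH spleens and at 21.5, 4.96 and 14.4 FPKM in wild-type spleens. Spleen 547, the lowest for Ccr6, held 934 FPKM of 5 B cell markers, the highest sum among the plckGAPDH spleens, where the others had 483 to 600.4, against 315 to 1525 in wild-type spleens. The log2 change of Ccr6 was -1.26 (SE 0.76, limma FDR 0.771). Ccr9, a gut-homing receptor, was at 0.16 to 1.27 FPKM in plckGAPDH spleens and 1.26 to 5.97 FPKM in wild-type spleens (log2 fold change -1.02, limma FDR 0.474), and shares exon bases with the antisense Gm17021.

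Ccr10, a receptor of plasma cells and skin-homing T cells whose ligands are Ccl27a and Ccl28, was high in 3 libraries. It was at 4.75 FPKM in plckGAPDH spleen 508, 2.74 FPKM in the lymph node of the same animal and 2.22 FPKM in lymph node 455. In the other plckGAPDH spleens it was at 0.07 to 0.23 FPKM, and in wild-type spleens at 0.15 to 0.64 FPKM. These 3 libraries were also the 3 with the highest plasma cell marker sums, and the plasma cell gene Jchain was at 3472, 1661 and 1886 FPKM in them, against 9.21 to 220.0 FPKM in the other 6. Jchain made most of those 3 sums. For Xbp1, Irf4 and Prdm1 of the list, lymph node 455 lay below spleen 547, whose Ccr10 was at 0.07 FPKM. Xbp1 was at 117 FPKM in the node and 131 FPKM in that spleen. Irf4 was at 44.8 FPKM in the node and 71.9 FPKM in the spleen, and Prdm1 at 8.17 FPKM and 12.2 FPKM. Sdc1 of the same list went the other way, at 10.2 FPKM in the node and 9.81 FPKM in the spleen. The part of plasma cells in the Ccr10 values was not tested.

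Among receptors of effector T cells, Ccr8 had a positive fold change in plckGAPDH spleens and Cxcr6, Ccr4 and Cxcr3 negative ones, and none of these passed the test. Cxcr6, a receptor of tissue-resident T and NK cells, was at 6.77 (343), 1.25 (508), 3.84 (547) and 10.3 FPKM (unnumbered) in plckGAPDH spleens, against 8.88 (1), 23.6 (4) and 14.5 FPKM (5) in wild-type spleens. The values overlapped only through the unnumbered spleen and wild-type spleen 1, with a log2 change of -1.48 (SE 0.54, limma FDR 0.372). Ccr4, found on helper and regulatory T cells, was at 0.14 to 1.29 FPKM in plckGAPDH spleens and 1.07 to 1.66 FPKM in wild-type spleens (log2 fold change -0.71, limma FDR 0.563). Ccr8, found on regulatory T cells and some helper T cells, was at 4.81, 2.23, 0 and 8.74 FPKM in plckGAPDH spleens, against 1.05, 2.19 and 0.40 FPKM in wild-type spleens, with a log2 change of 0.81 (SE 0.64, limma FDR 0.876).

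Ccr2, Cx3cr1 and Ccr3, receptors of myeloid cells, were lowest in plckGAPDH spleen 508 and highest in wild-type spleen 5 among the 7 spleens. Ccr2, which brings monocytes out of the bone marrow, was at 21.3, 1.41, 28.5 and 11.3 FPKM in plckGAPDH spleens 343, 508, 547 and the unnumbered one, against 20.8, 25.5 and 36.8 FPKM in wild-type spleens 1, 4 and 5. Spleens 343 and 547 lay in the wild-type range, and the log2 change of -1.24 (SE 0.71, limma FDR 0.726) became -0.48 without spleen 508. Cx3cr1, found on patrolling monocytes, was at 0.96 to 3.43 FPKM in plckGAPDH spleens and 2.24 to 7.20 FPKM in wild-type spleens (log2 fold change -1.10, limma FDR 0.462). Ccr3, the eotaxin receptor of eosinophils, was at 19.8 FPKM in wild-type spleen 5 and at 0.05 to 1.18 FPKM in the other 6 spleens. Ccr1 and Cxcr2 lay at 0.80 to 15.2 FPKM in the 7 spleens, with log2 fold changes of 0.01 and -0.42. Monocyte and macrophage markers, 6 genes with none at 0, summed to 157 to 469 FPKM in plckGAPDH spleens, lowest in spleen 508, and to 271 to 868 FPKM in wild-type spleens, highest in wild-type spleen 5. Their part in these receptor values was not tested.

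Among the atypical receptors only Ackr2 passed the filter. Ackr2, a scavenger of inflammatory CC chemokines, was at 40.8 (343), 1.34 (508), 10.99 (547) and 5.66 FPKM (unnumbered) in plckGAPDH spleens, against 9.38 (1), 0.53 (4) and 2.45 FPKM (5) in wild-type spleens. Spleen 343 stood above all others and the rest overlapped, and the log2 change of 1.31 (SE 0.85, limma FDR 0.805) became 0.59 without spleen 343. Ackr3, a scavenger of Cxcl12, was at 0.01 to 0.06 FPKM in plckGAPDH spleens and at 0.78 (1), 0.04 (4) and 1.15 FPKM (5) in wild-type spleens. Ackr1 and Ackr4 did not pass 0.88 FPKM in any library. Of these, Ackr4 lay at 0.03 to 0.30 FPKM in plckGAPDH spleens and 0.32 to 0.39 FPKM in wild-type spleens, with no overlap, and was not tested.

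**Figure D3:**
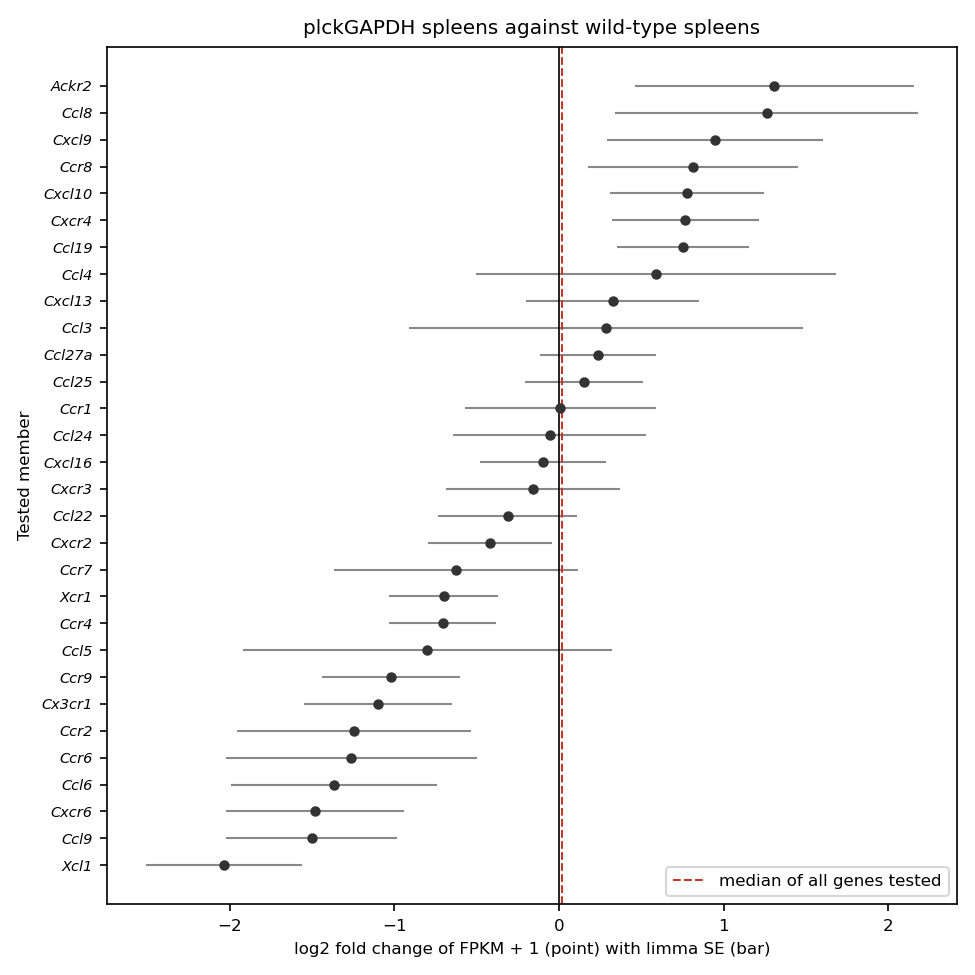
Log2 fold change of FPKM + 1 (points, with the limma SE as bars) of 30 of the 31 tested members in plckGAPDH spleens against wild-type spleens, ordered by size, with the median of all 12607 genes tested as a dashed line at 0.02. Xcl1 lies at the low end at -2.04 and Ackr2 at the high end at 1.31, and none passed the test.

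Genes that act downstream of chemokine receptors or beside them were read from a list of 62 genes, of which 60 were in the table and 59 were tested. limma called 0 higher and 0 lower between plckGAPDH and wild-type spleens. Of the 59, 6 had an unadjusted p under 0.05 in limma, beside 1116 of all 12607 genes tested. The fold changes were positive in 20 and negative in 39, with a median of -0.23 beside 0.02 over all genes tested. With scaling to genes outside the antigen receptor, haemoglobin and mitochondrial genes, 11 were positive and 48 negative. That scaling shifted the whole table down, with medians of -0.48 for the list and -0.19 for all genes. Among the most negative were those of Rasgrp2, the activator of Rap1 that turns on integrins, at -1.62 (limma FDR 0.200), and Adrbk2, a kinase that desensitises receptors, at -1.45 (limma FDR 0.170). Adrbk2 was at 0.58 to 4.07 FPKM in plckGAPDH spleens and 4.83 to 7.71 FPKM in wild-type spleens, with no overlap. Rasgrp2 was at 12.3 to 27.0 FPKM in plckGAPDH spleens and 30.7 to 107 FPKM in wild-type spleens, with no overlap. Of all genes tested, 3.88% lay below the wild-type values without overlap. Without the unnumbered spleen, Adrbk2 passed the threshold (limma FDR 0.0473). The most positive were Rap1a, a small GTPase of integrin activation, at 0.66, the receptor kinase Grk5 at 0.56 and the G protein regulator Rgs16 at 0.38. Rap1a overlapped between the groups at 65.3 to 102 FPKM in plckGAPDH spleens and 45.5 to 65.8 FPKM in wild-type spleens.

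In the lymph nodes no member was called either, and the 2 nodes, whose titles differ (MES for 455, LN for 508), differed widely. Animal 508 gave 1 of the nodes and 1 of the spleens, so these groups were not independent, while limma treated all samples as independent. The test covered 36 members at 1 FPKM or more in at least 2 samples, by limma in a fit of 3 groups over 9 samples. It called 0 higher and 0 lower in lymph nodes than in plckGAPDH spleens. The background was 0.00731% of 13682 genes called higher and 0.00731% lower. Of the 36, 6 had an unadjusted p under 0.05 in limma (Ccl21a, Ccl8, Ccl19, Ccl12, Cxcl10 and Ccl24), beside 1546 of the 13682 genes. Of the fold changes 10 were positive and 26 negative, with a median of -0.45, and the median over all genes tested was -0.59. With median-of-ratios scaling the median of all genes was -0.01, and 17 members were positive and 19 negative. Of 29 members at 1 FPKM or more in either node, 23 were higher in lymph node 455 and 6 higher in lymph node 508.

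Among the 39 members that reached 1 FPKM in at least 1 library, lymph node 455 held the highest level of 6, and 3 of these are ligands of monocytes and eosinophils. Ccl8, a CC chemokine that in the mouse acts on Ccr8, was at 513 FPKM in lymph node 455 and 21.1 FPKM in lymph node 508, against 6.56 (343), 14.6 (508), 5.24 (547) and 2.48 FPKM (unnumbered) in plckGAPDH spleens. It was the most abundant ligand in both nodes and in spleen 508, and made 66.6% of summed ligand FPKM in lymph node 455. In wild-type spleens it was listed at 0 in spleen 1 and was at 22.3 FPKM in spleen 4 and 0.12 FPKM in spleen 5. The spleen groups overlapped, with a log2 change of 1.26 between plckGAPDH and wild-type spleens (SE 0.92, limma FDR 0.849). Ccl24, an eotaxin that acts on Ccr3, was at 56.1 FPKM in lymph node 455 and 1.2 FPKM in lymph node 508, against 2.06, 4.41, 0 and 0.04 FPKM in plckGAPDH spleens 343, 508, 547 and the unnumbered one and 0.19, 2.55 and 1.25 FPKM in wild-type spleens 1, 4 and 5. Ccl12, a ligand of Ccr2 in the mouse, was at 16.3 and 1.12 FPKM in lymph nodes 455 and 508, against 0.22, 0.67, 0.39 and 1.21 FPKM in plckGAPDH spleens and 0, 3.26 and 0.11 FPKM in wild-type spleens. For Ccl24 the level in lymph node 508 lay inside the range of the plckGAPDH spleens, and for Ccl12 too. The log2 fold changes were 3.90 for Ccl8 (SE 1.35), 2.46 for Ccl24 (SE 1.09) and 1.94 for Ccl12 (SE 0.77), with a limma FDR of 0.359 for each. Without lymph node 455 they were 1.63, 0.11 and 0.42. Without both samples of animal 508, with lymph node 455 as a single node assumed to vary like the other groups, Ccl24 and Ccl21a passed the threshold, at 5.28 (limma FDR 0.0242) and 3.36 (limma FDR 0.0294), beside a background of 0.252% called higher and 0.0296% lower.

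The promoters of Ccl8 and Ccl12, neighbours on chromosome 11 that were both highest in lymph node 455, are shown. They too were chosen after seeing which promoters were at hand and where motifs lay. Capitals mark the same motifs as above. The only matches were a TATA box in each, at position -32 in Ccl8 and -31 in Ccl12.
Ccl8 promoter, chr11:82114935-82115234, plus strand: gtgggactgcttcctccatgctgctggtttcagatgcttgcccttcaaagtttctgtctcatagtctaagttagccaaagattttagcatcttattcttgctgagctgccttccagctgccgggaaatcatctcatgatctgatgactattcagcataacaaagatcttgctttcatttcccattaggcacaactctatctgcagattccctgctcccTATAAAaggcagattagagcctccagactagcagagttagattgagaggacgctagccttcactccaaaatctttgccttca
Ccl12 promoter, chr11:82101595-82101894, plus strand: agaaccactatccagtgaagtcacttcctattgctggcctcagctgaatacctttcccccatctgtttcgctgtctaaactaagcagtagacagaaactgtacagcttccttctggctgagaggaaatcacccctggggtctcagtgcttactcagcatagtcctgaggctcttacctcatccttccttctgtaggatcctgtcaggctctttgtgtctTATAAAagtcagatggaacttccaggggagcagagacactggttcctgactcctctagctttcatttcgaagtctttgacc
The 2 genes lie at chr11:82115185-82116799 and chr11:82101845-82103400, in a row of 6 members from 82035571 to 82305690 that also holds Ccl2, Ccl7, Ccl11 and Ccl1. Of these other members Ccl2, Ccl7 and Ccl11 stayed under 1 FPKM everywhere, at 0.48, 0.49 and 0.56 FPKM in lymph node 455, which was the highest value of each. Another row of 5 members, from 83525778 to 83664683 on the same chromosome, holds Ccl5, Ccl9, Ccl6, Ccl3 and Ccl4. There Ccl9 and Ccl6 were at 21.7 and 37.8 FPKM in lymph node 455 and 0.66 and 5.01 FPKM in lymph node 508, against 0.40 to 5.11 and 2.51 to 17.5 FPKM in plckGAPDH spleens. Their log2 fold changes of 0.85 and 0.96 turned to -1.04 and -0.39 without lymph node 455. Ccl3, Ccl4 and Ccl5 of the same row were at 7.18, 6.65 and 63.4 FPKM in lymph node 455 and at 0.87, 1.47 and 14.1 FPKM in lymph node 508. Their log2 fold changes were -1.93, -1.91 and -1.94, with limma FDR between 0.376 and 0.400.

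Markers of macrophages and fibroblasts also differed between the nodes. The 6 monocyte and macrophage markers summed to 448 FPKM in lymph node 455 and 81.0 FPKM in lymph node 508, against 157 to 469 FPKM in plckGAPDH spleens. Within that list Mrc1, a scavenger receptor of tissue macrophages, was at 21.2 FPKM in lymph node 455 and 0.45 FPKM in lymph node 508, against 0.34 to 3.95 FPKM in plckGAPDH spleens. Csf1r and Cd68 were also higher in lymph node 455 than in any plckGAPDH spleen. Lyz2, Adgre1 and Spic of the list lay within the range of these spleens there. The 6 fibroblast markers summed to 18.8 FPKM in lymph node 455, with none at 0, and to 0.93 FPKM in lymph node 508, against 0.57 to 6.83 FPKM in plckGAPDH spleens. The part of these cells in the ligand values was not tested. Ccl21a was at 9.53 and 0.69 FPKM in lymph nodes 455 and 508, against 0 to 0.08 FPKM in plckGAPDH spleens, a log2 change of 2.05 (SE 0.59, limma FDR 0.359). The Ccl21a values of the nodes rested on an estimated 171 and 14 fragments. Cxcl16 was also highest in lymph node 455, at 13.5 FPKM, against 1.96 to 5.22 FPKM in the other 8 libraries.

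**Figure D4:**
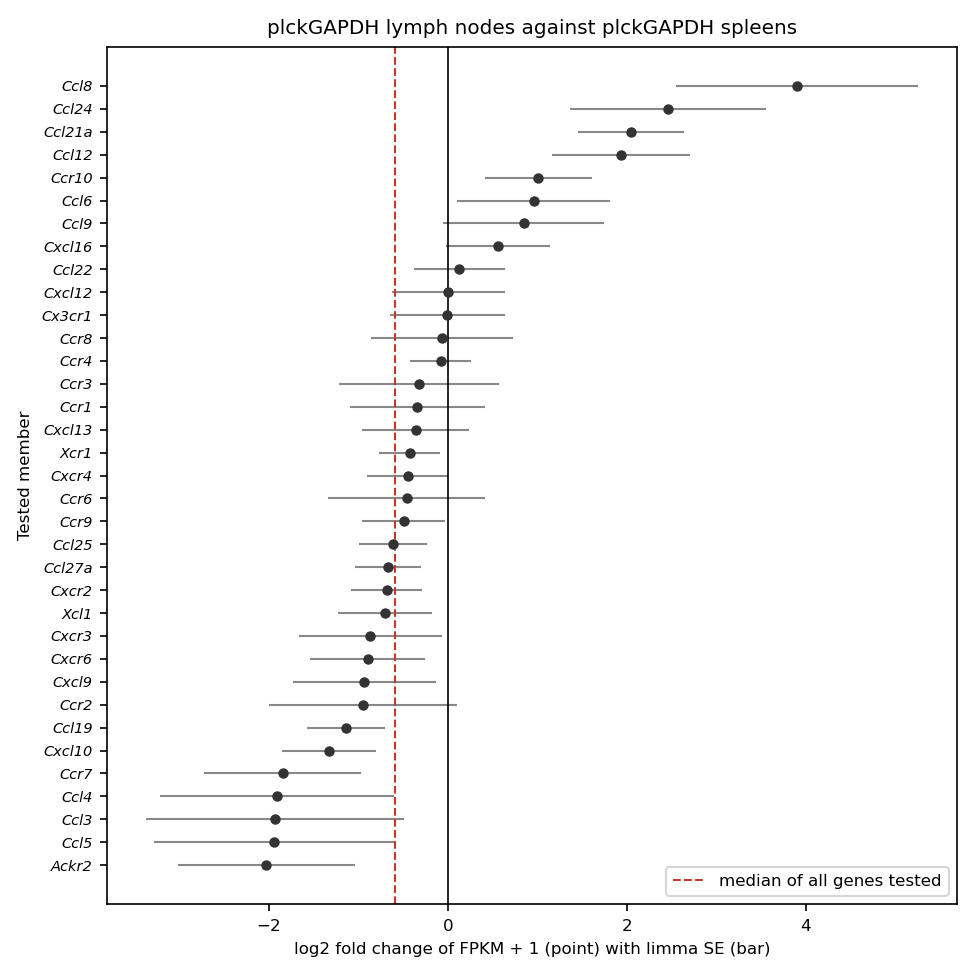
Log2 fold change of FPKM + 1 (points, with the limma SE as bars) of 35 of the 36 tested members in plckGAPDH lymph nodes against plckGAPDH spleens, with the median of all 13682 genes tested as a dashed line at -0.59. Ccl8, Ccl24, Ccl21a and Ccl12 lie at the high end and Ackr2, Ccl5, Ccl3, Ccl4 and Ccr7 at the low end, and none passed the test.

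At the low end of that comparison stood Ackr2, Ccr7, Cxcl10 and Ccl19 beside Ccl3, Ccl4 and Ccl5. Ackr2 was at 0.74 and 2.06 FPKM in lymph nodes 455 and 508, against 1.34 to 40.8 FPKM in plckGAPDH spleens, a log2 change of -2.03 (SE 0.99, limma FDR 0.359). Ccr7 was at 1.76 and 6.10 FPKM in the nodes, against 5.35 to 41.1 FPKM in plckGAPDH spleens (log2 fold change -1.84, SE 0.88, limma FDR 0.359). Cxcl10 was at 6.03 and 2.67 FPKM in the nodes, against 6.74 to 18.5 FPKM in plckGAPDH spleens (log2 fold change -1.33, SE 0.53, limma FDR 0.359). Ccl19 was at 0.62 and 0.42 FPKM in the nodes, against 0.73 to 5.09 FPKM in plckGAPDH spleens (log2 fold change -1.13, SE 0.44, limma FDR 0.359). With median-of-ratios scaling the log2 changes of Cxcl10 and Ccl19 were -0.68 and -0.77. Cxcr4 was nearly level between the nodes, at 62.8 and 66.8 FPKM, against 55.3 to 115 FPKM in plckGAPDH spleens. Its log2 change of -0.45 turned to 0.32 with median-of-ratios scaling. Ccr10 had a log2 change of 1.01 (SE 0.59, limma FDR 0.361), and spleen 508 lay above both nodes. Among the 17 receptors tested it was the 1 with a positive fold change before rescaling. With median-of-ratios scaling Ccr1, Ccr4, Ccr6, Ccr8, Cxcr4 and Cx3cr1 were positive as well.

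The lymph node and the spleen of animal 508 can be set side by side, since both come from 1 mouse. Of 25 members at 1 FPKM or more in either tissue, 19 (76.0%) lay within 2-fold of each other, beside 89.0% of the 11115 genes that met the same rule. Over the other 7 pairings of a plckGAPDH lymph node with a plckGAPDH spleen, 9.09% to 27.3% of members and 25.2% to 78.3% of all genes did so. Of the 25 members, 8 were higher and 17 lower in the lymph node. The ratio of lymph node to spleen ran from 0.272 for Ccl24 to 2.00 for Ccl6. Cxcr4 was at 66.8 FPKM in the lymph node and 93.5 FPKM in the spleen, Cxcr3 at 22.8 FPKM in the lymph node and 23.9 FPKM in the spleen, and Ccl5 at 14.1 FPKM in the lymph node and 7.91 FPKM in the spleen. In both tissues Ccl5 lay below all 7 other libraries, and so did Ccl3, Cxcr6, Xcl1, Ccr2 and Ccl4. With 1 sample per tissue this comparison has no replicate check.

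**Figure D5:**
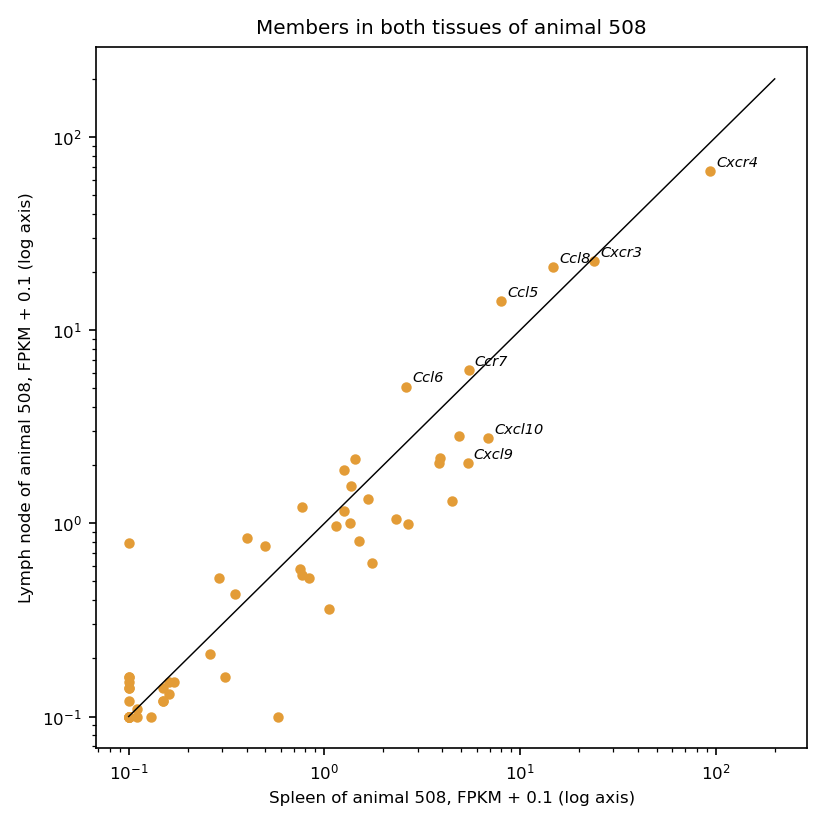
FPKM + 0.1 of each reported member in the lymph node (vertical, log axis) and the spleen (horizontal, log axis) of animal 508, with the line of equal values and names for members at 5 FPKM or more in either tissue. Cxcr4 and Cxcr3 are highest in both tissues, and 19 of the 25 members at 1 FPKM or more in either tissue lie within 2-fold.

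Receptor genes also lie side by side on chromosome 9, in the order Ccr9, Cxcr6, Xcr1, Ccr1, Ccr3 and Ccr2, and each of these reached 1 FPKM in at least 1 library. Of these Ccr3 was not tested between the spleens, Ccr1 had a log2 change of 0.01, and those of Ccr9, Cxcr6, Xcr1 and Ccr2 were negative, from -1.48 to -0.70, none past the test.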

How the data were processed

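RNA of 9 samples was sequenced as pairs of 75-base reads from stranded total RNA libraries, per the labels' protocols. The authors deposited FPKM with 2 decimals for 46517 genes. The submitters' processing notes list Bowtie2 2.2.6, RSEM, Subread 1.5.0-p3 with featureCounts, STAR 2.4.0a and the build mm10, without saying which made the FPKM. FPKM divides by all counted fragments, so the most abundant genes of a library pull the rest down. The series' design text gives 3 replicates and another sequencer, and sample numbers here follow the labels.

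From the FPKM, log2(FPKM + 1) was fitted with limma 3.58.1 (R 4.3.3, moderated with a mean trend) over all genes at 1 FPKM or more in at least 3 of the 7 spleens, or in at least 2 of 9 samples for the lymph node comparison, with Benjamini-Hochberg adjustment over all genes tested and a threshold of 0.05. A fold change is on the log2(FPKM + 1) scale and understates the change of low genes. Depth was estimated from low FPKM of genes with 1 transcript, which fall on whole multiples of 1 fragment's value: 79.0% to 84.6% of values lay within 0.02 of a whole number of fragments or the rounding of the table, against 14.5% to 15.7% by chance. Fragment numbers are estimates and no count test was run. No 2 libraries shared more than 0.257% identical values. The limma script was tested on simulated data.

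The members, gene lists and tests were chosen with earlier results of these data known. Members named with each sample's value were those with the 6 largest positive and 6 largest negative fold changes in each comparison, the 6 ligands and 6 receptors with the highest mean, and tested members whose spleen groups did not overlap, which came to 21; further members were named after their values were seen. Alternatives were other pseudocounts (0.1 and 0.5), filters, scalings, sample weights and left-out samples. Promoters come from RefSeq (GRCm38.p6), and those shown were chosen after seeing which were at hand and where motifs lay. The values of 1 member and of 1 gene of the pathway list are not reported here, while counts and medians cover all genes tested.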

Additional observations from a re-analysis of the deposited data

Results flagged for a closer look

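The values in the 4 plckGAPDH spleens were screened for 38 members, and in 6 of them 1 value stood far above the other 3. The rule flags about 1 in 20 such groups by chance if values are normally distributed. FPKM with values at 0 need not follow that, so the 6 cannot be compared with this rate. Ccr10 was at 4.75 FPKM in plckGAPDH spleen 508, against 0.07 to 0.23 FPKM in the other plckGAPDH spleens, and that library also had the highest sum of plasma cell markers, most of it Jchain, whose part was not tested. Ccr1 was at 15.2 FPKM in spleen 547, against 1.9 to 2.56 FPKM in the others. Cxcl12 was at 4.13 FPKM in the unnumbered spleen, against 0.03 to 0.47 FPKM in the others. Ccl17 was at 1.26 FPKM in spleen 547, against 0 to 0.12 FPKM in the others. Ccl1 was at 0.48 FPKM in spleen 508 and listed at 0 in the other 3. Ccl21a was at 0.08 FPKM in plckGAPDH spleen 547 and listed at 0 in the other 3, a difference of an estimated 2 fragments.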

How the results depend on the processing

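With sample quality weights, whose estimation did not converge, 8 members were called higher and 2 lower in plckGAPDH than in wild-type spleens. Of the 59 pathway genes tested, 3 were called higher and 7 lower. The background was 7.07% of 12607 genes called higher and 7.71% lower. Leaving out 1 sample gave 0 to 1 member and 0 to 2 pathway genes called lower in that comparison. Xcl1 was called without spleen 343 or without the unnumbered spleen, and among the pathway genes Adrbk2 without the unnumbered spleen. Of all genes tested, 184 of 12263 were called lower without spleen 343 and 189 of 12303 without the unnumbered spleen. In lymph nodes against plckGAPDH spleens, the log2 change of Ccl21a was 3.37 without lymph node 508. Without both samples of animal 508, those of Ccl24 and Ccl21a were 5.28 and 3.36. The limma FDR of Xcl1 ran from 0.0210 to 0.9996 over the alternatives. Among the members chosen by the rule for named genes, the sign of some log2 fold changes turned, and the cause was not tested. In spleens these were Ackr2 (-0.062 with weights, -0.14 without wild-type spleens 4 and 5), Ccl24 (0.024 with median-of-ratios scaling, 0.26 with weights), Ccl5 (0.87 with weights) and Cxcr3 (0.036 with weights). With single samples left out, the ranges were -0.53 to 0.32 for Ccl24, -0.56 to 1.75 for Ccl3, -0.14 to 1.88 for Ccl4, -1.48 to 0.45 for Ccl5, -1.44 to 0.18 for Ccr7 and -0.50 to 0.23 for Cxcr3. In lymph nodes against plckGAPDH spleens they were Ccr2 (0.13 without animal 508), Ccr6 (0.065 with median-of-ratios scaling), Cxcr4 (0.32 with that scaling) and Ccr8 (0.42 and 0.026 with pseudocounts of 0.1 and 0.5, 0.39 with median-of-ratios scaling, 0.73 without animal 508). With single samples left out, the ranges were -0.39 to 2.30 for Ccl6, -1.04 to 2.73 for Ccl9, -2.79 to 0.89 for Ccr2, -0.92 to 0.79 for Ccr8 and -2.39 to 0.66 for Cxcr3. Of the other tested members, whose signs were compared under the scalings alone, median-of-ratios scaling turned Cxcl13 (0.08), Ccr1 (0.19), Ccr4 (0.17) and Cx3cr1 (0.36) in lymph nodes. Scaling without receptor, haemoglobin and mitochondrial genes turned Ccr1 (-0.17) in spleens and Ccl22 (-0.02) and Cx3cr1 (0.03) in lymph nodes. A group left with 1 lymph node was assumed to vary like the others. No paired analysis was possible because the groups share 1 animal number at most. Depth limits members under 1 FPKM, where values rest on few fragments.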
